A study of Mus musculus with 18 samples.

Results

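Dermal papilla cells were taken as 1069 of 47251 kept cells (2.26%) of mouse skin, chosen on their measured counts. A kept cell had at least 200 genes, at least 500 unique molecular identifiers (UMIs, which count captured mRNA molecules) and at most 10% mitochondrial UMIs. It was a member when Slc26a7, Prlr, Pappa2 and Corin together gave at least 4 UMIs with at least 2 of these genes detected. It also had to lack UMIs of the leukocyte gene Ptprc and the endothelial gene Pecam1, and the keratin genes Krt5 and Krt14 together had to stay under 0.3% of its UMIs. The dermal papilla is a cluster of specialized mesenchymal cells at the base of the hair follicle. It exchanges Wnt, BMP, FGF and Hedgehog signals with the epithelium around it, and through them takes part in setting when a hair grows and when it rests. Its cells also act on pigment cells, through Kit ligand and through agouti, the protein that switches pigment type.

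The series asked how skin cells respond to stretch. All mice had surgery in which a path was opened under the skin from an incision near the tail towards the neck. The expanded arm (EXP in the labels) then received a hydrogel expander held near the neck by stitches, and the control arm (CTRL) received none, so both arms carry a wound. Live sorted cells of all skin types were profiled by droplet 3′ mRNA sequencing on day 1 (2 sequencing rounds), day 2 (2 rounds) and day 4 (1 round), with 1 library per arm, day and round. The mice of an arm and round were pooled in 1 tube. Hashing antibodies, which mark the mouse of origin, were used in all but the round 1 libraries of day 1, but only 113 of 1045 members in hashed libraries carried a single called hashtag, so the library and not the mouse was the unit here. Strain, age and sex were not given in the sources used here.

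The 10 libraries held 1927 to 8312 kept cells and from 17318478 to 73723329 UMIs in kept cells. Members numbered 15, 82, 15, 356 and 188 in the control libraries of day 1 round 1, day 1 round 2, day 2 round 1, day 2 round 2 and day 4, and 9, 44, 54, 123 and 183 in the expanded libraries in that order. Tests used the 7 libraries with at least 20 members, namely the control libraries of day 1 round 2, day 2 round 2 and day 4 and the expanded libraries of day 1 round 2, day 2 round 1, day 2 round 2 and day 4. Levels below are CPM, a gene's UMIs per 1000000 UMIs of a library's summed members, and values listed without names follow that order. No member barcode was shared between libraries. In the control library of day 1 round 1, which was not tested, the summed level of 7 fibroblast markers in members was 47072 CPM, and in the expanded library of that round the summed level of 11 keratinocyte markers was 4355 CPM. In day 2 round 2 the control library's erythrocyte marker sum reached 2021 CPM, and it was at most 31.1 CPM in every other library. In the expanded library of day 2 round 2, the smooth muscle sum was 542 CPM and the Schwann sum 209 CPM. Of 7 hair matrix and shaft markers, 4 (Krt25, Krt27, Krt35 and Hoxc13) had no UMI in any member, and the sum of all 7 was 12.0 CPM in pooled members.

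Among the members, 90 carried UMIs of all 4 choosing genes, 608 of 3 and 371 of 2. Prlr, the prolactin receptor, was detected in 92.4% of members, the anion transporter Slc26a7 in 87.2%, the IGF-binding-protein protease Pappa2 in 77.9%, and Corin, a protease that marks the dermal papilla in mouse skin, in 16.2%. These shares describe the choice and test nothing. The marker not used in the choice was Rspo3, which encodes a secreted amplifier of Wnt signals. It was detected in 44.3% of members at a median depth of 5126 UMIs and in 3.56% of comparison fibroblasts at 11104 UMIs. Comparison fibroblasts were 12881 kept cells with at least 8 UMIs over at least 3 of the fibroblast genes Pdgfra, Dcn, Dpt and Lum, none of the 4 choosing genes, and the same limits on Ptprc, Pecam1 and keratins. Lef1, the Wnt-responsive transcription factor of the papilla, was detected in 64.5% of members and 1.60% of fibroblasts, and Igfbp3, an IGF carrier, in 90.4% and 13.4%.

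The lower bound of the rule had papilla gene expression on either side. The 48 members with exactly 4 UMIs of the choosing genes had, pooled, 145 CPM of Rspo3, 87.1 CPM of Lef1, 2154 CPM of Igfbp3 and 25710 CPM of Col1a1. The 44 cells just below, with 3 UMIs, had 135, 97.3, 2088 and 1981 CPM of these genes. Most Col1a1 UMIs inside the bound, 7835 of 8858, came from 3 cells of the control library of day 1 round 1, which was not tested. Without that library the 45 cells inside had 204 CPM of Rspo3, 122 of Lef1, 3009 of Igfbp3 and 4165 of Col1a1, and the 42 below had 138, 96.5, 2000 and 2003 CPM.

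The genes furthest above comparison fibroblasts included known papilla genes and transcription factors (mean CPM over the 7 libraries, a description, since the cells were chosen on related genes). Scube3, a secreted modulator of Hedgehog and BMP signalling, had 87.3 CPM in members and 0.242 in fibroblasts. Hhip, the membrane protein that binds and limits Hedgehog ligand, had 150 and 0.677 CPM. The AP-2 factors Tfap2c and Tfap2a had 84.6 and 118 CPM in members, 116-fold and 99.2-fold the fibroblast levels. Sostdc1, an antagonist of BMP and Wnt ligands, stood at 203 CPM and 112-fold, Lef1 at 261 CPM and 78.5-fold, and Igfbp3 at 4699 CPM and 62.0-fold. Wnt6 (25.8-fold), Rspo3 (24.5-fold) and Serpine2, a protease inhibitor (23.9-fold), were among the 15 leading genes too. So was the acute-phase gene Saa2 (35.0-fold), with a mean of 428 CPM in the expanded and 20.1 CPM in the control libraries. Sostdc1 was also present in other kept cells, at 56.1 CPM, whereas Hhip and Scube3 were at 1.66 and 1.51 CPM there.

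**Figure D1:**
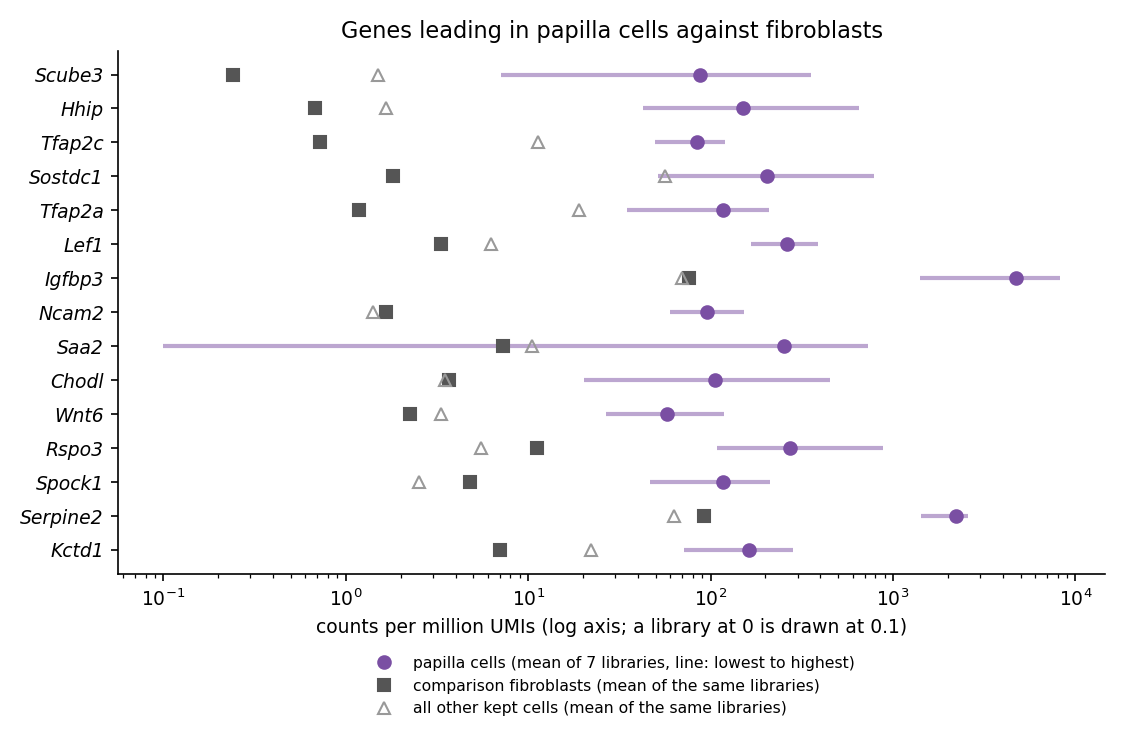
Mean level over the 7 tested libraries (CPM, log axis) of the 15 genes with the largest ratio of papilla cells to comparison fibroblasts. Purple points are papilla cells with a line from the lowest to the highest library, grey squares are fibroblasts and open triangles all other kept cells. Saa2 has the widest line, from a library at 0 to 728 CPM, and Serpine2 the narrowest band, from 1424 to 2593 CPM.

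Papilla transcription factors varied between libraries to different degrees. Lef1 was at 229, 201, 337, 230, 166, 276 and 390 CPM in the 7 tested libraries, with the arms overlapping. Trps1, a repressor needed for hair formation, ran from 438 to 832 CPM, the homeobox gene Alx4 from 21.3 to 69.6 CPM, and Tfap2a from 34.8 to 209 CPM. Sostdc1 ranged from 51.7 to 168 CPM in 6 libraries and stood at 790 CPM in 1, the control of day 1 round 2. Hhip was at 648 CPM there and between 42.6 and 123 CPM elsewhere. The control library of day 1 round 2 thus stood apart in several secreted and Hedgehog pathway genes, but not in Lef1.

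Members fell into 2 sets along this line. In 151 members the UMIs of Vcan and Hhip together exceeded those of Igfbp3, and in 918 they did not, a split drawn after the data had been seen. Vcan encodes versican, a proteoglycan known from the papilla of growing follicles. The first set held more of some signal and receptor genes and less of others, with libraries pooled. Bmp4 was lower in it, at 322 CPM against 529, as were Notum (70.3 against 120) and Kitl (32.8 against 71.2). Within the control library of day 1 round 2, Bmp4 was at 329 and 335 CPM. Rspo3 was at 513 CPM against 155, and Alpl, the alkaline phosphatase used to stain papillae, at 78.8 against 3.24. Rspo4 was at 65.6 against 6.11 pooled, but mainly through the control library of day 1 round 2 (220 against 0), and at 11.4 against 6.96 CPM in that of day 4. The fibroblast collagen gene Col3a1 was higher in the first set when pooled, at 5451 CPM against 1165. Within the control library of day 1 round 2 it was not higher, at 2380 against 2595 CPM. Within that of day 4 it was at 3086 against 1795 CPM. The Hedgehog targets Ptch1 and Gli1 were at 189 and 66.3 CPM against 59.2 and 26.0. Of the choosing genes, whose levels in members depend on the rule, Corin was at 258 CPM against 21.6, and Slc26a7 and Prlr at 500.3 and 546 CPM against 1707 and 1449; these support nothing. Lef1 (208 and 272 CPM) and Inhba, an activin subunit (1191 and 1108 CPM), were at like levels. Depth differed, with a median of 7044 UMIs in the first set and 4898 in the other. After thinning to 3000 UMIs, Rspo3 was detected in 64.8% of 122 cells of the first set and 30.6% of 794 cells of the other, and Alpl in 22.1% and 1.39%. Within the control library of day 1 round 2 alone, Rspo3 was at 1163 CPM in the first set and 102 CPM in the other, and within that of day 4 at 443 and 210 CPM.

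**Figure D2:**
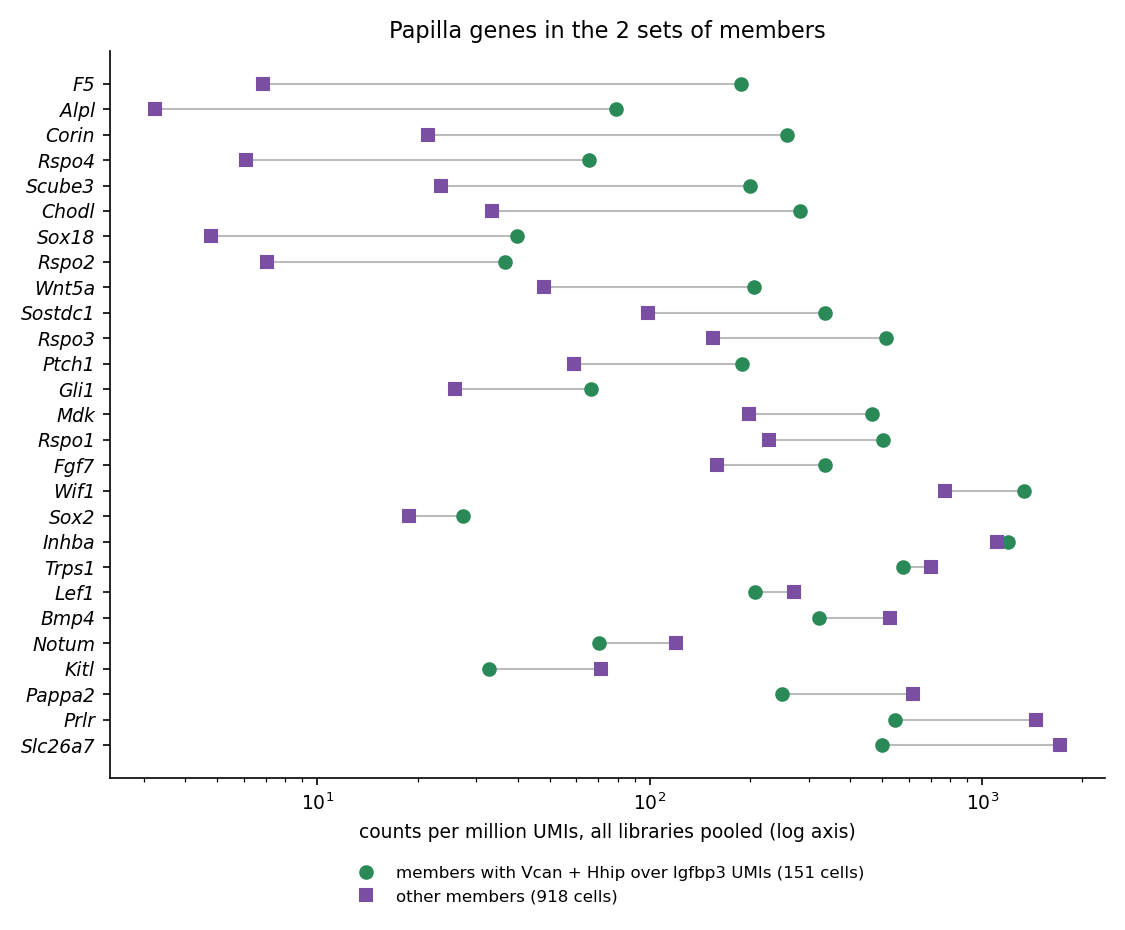
Pooled level (CPM, log axis) of 27 papilla genes in the 151 members with more Vcan and Hhip than Igfbp3 UMIs (green points) and in the 918 other members (purple squares). F5, Alpl, Corin and Rspo4 lie far apart, Inhba, Trps1 and Lef1 close together, and Slc26a7, Prlr, Pappa2, Kitl, Notum and Bmp4 in the opposite order.

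The first set was unevenly spread over libraries. It made up 60% of members in the control library of day 1 round 1, 62.2% in that of day 1 round 2, 0% in that of day 2 round 1, 6.74% in that of day 2 round 2 and 26.6% in that of day 4. In the expanded libraries the shares were 22.2%, 2.27%, 7.41%, 7.32% and 0.546%. The control share was the larger in both day 1 pairs and on day 4, and the expanded share in both day 2 pairs. The difference between arms was not tested, because the split was drawn on these libraries. Where a gene described below lost its call without these cells, that value is given with it.

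The share of kept cells that were members was 0.257%, 0.987%, 0.686%, 6.09% and 2.50% in the control libraries and 0.305%, 0.749%, 1.59%, 6.38% and 5.35% in the expanded libraries. In both arms the share was lowest in round 1 of day 1 and highest in round 2 of day 2, followed by day 4. The mean was 2.11% ± 2.38 in control libraries (SD, n = 5) and 2.87% ± 2.79 in expanded libraries (SD, n = 5), a difference of 0.769 percentage points that was smaller than the spread (exact two-sided permutation test, p = 0.714, the smallest possible being 0.00794). The expanded share was higher in 4 of 5 pairs of a day and round (exact sign-flip test over pairs, p = 0.188, with 0.0625 the smallest possible). Without the expanded library of day 2 round 2 the difference turned to −0.108. Of members plus comparison fibroblasts, members made up 6.79% ± 8.67 and 18.8% ± 18.0 (SD, n = 5 each; exact permutation test, p = 0.230), higher in 5 of 5 pairs (exact sign-flip p = 0.0625). Comparison fibroblasts numbered 717 to 2955 per control library and 178 to 803 per expanded library. More members and fewer fibroblasts recovered by the digestion cannot be told apart from a share alone.

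**Figure D3:**
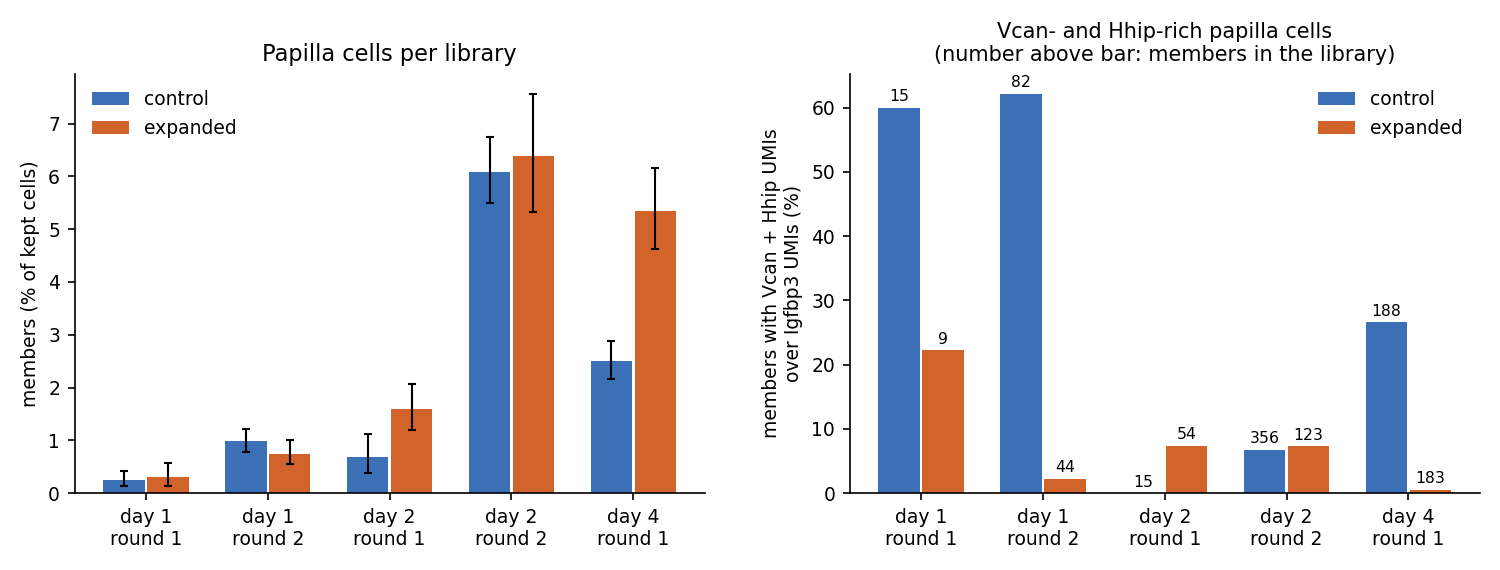
Left, members as a percentage of kept cells in each library, with exact 95% binomial intervals that cover counting error only; right, the percentage of members with more Vcan and Hhip than Igfbp3 UMIs. Blue bars are control and orange bars expanded libraries of the same day and round. On the left, both arms are highest in round 2 of day 2, at 6.09% and 6.38%; on the right, the control bars of day 1 and day 4 reach 60%, 62.2% and 26.6%.

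Sox2, a transcription factor found in the papillae of some hair types, was detected in 47 of 916 members thinned to 3000 UMIs (5.13%, exact 95% interval 3.79 to 6.77) and in 18 of 12485 fibroblasts thinned alike (0.144%). Without thinning the shares were 8.04% and 0.388%. Per tested library, the thinned share was 5.62% ± 0.730 in controls (SD, n = 3) and 4.96% ± 2.39 in expanded skin (SD, n = 4), a difference within the spread (exact permutation test, p = 0.743, the smallest possible being 0.0571). In the 3 pairs of a day and round it was 6.25% and 2.78%, 5.79% and 4.72%, and 4.82% and 4.03%, lower in the expanded library each time, with a mean paired difference of −1.78 percentage points (exact sign-flip test, p = 0.250, the smallest possible). Dividing cells were rare. At least 2 of 8 proliferation genes were detected in 2 of 916 thinned members (0.218%, exact 95% interval 0.0265 to 0.786), 1 in the control library of day 4 and 1 in the expanded library of day 1 round 2, and in 113 of 12485 thinned fibroblasts (0.905%). Unthinned, the counts were 3 of 1069 members (0.281%) and 230 of 12881 fibroblasts (1.79%). No difference between arms was detectable at this depth (exact permutation test, p = 1).

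Expansion was then tested gene by gene in the summed counts of members, with day as a covariate. Of 7545 genes tested, 132 changed (1.75%; edgeR's quasi-likelihood test, Benjamini-Hochberg adjusted p under 0.05), 78 higher (1.03%) and 54 lower (0.716%) in expanded skin. Overlap of the arms here and below refers to the 7 tested libraries. They did not overlap for 66 of the 78 and 46 of the 54, a description only, since these genes were called for their difference. Of all genes tested, 5.55% lay higher and 6.71% lower in every tested expanded library. With the pair of day and round as a block in place of day, the count was 301, with 153 higher and 148 lower. The expanded library of day 2 round 1 had no tested control in its block, so that arm effect rested on 3 pairs. The number of calls depended on single libraries. It was 47 without the control library of day 1 round 2, 75 without that of day 2 round 2 and 19 without that of day 4. It was 38 without the expanded library of day 1 round 2, 283 without that of day 2 round 1, 117 without that of day 2 round 2 and 17 without that of day 4. Among the 43 genes named by the rule, the sign was the same in every alternative fitted, and the call of 5 (Cemip, Il19, Hp, Ntrk2 and Vcam1) held in every one in which the gene was tested.

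Cemip, Il19 and acute-phase genes gave the largest rises. Cemip, a hyaluronan-degrading protein, was at 0, 0.956 and 2.59 CPM in the control libraries and 30.6, 80.4, 37.4 and 90.2 CPM in the expanded ones. Il19, a cytokine of the IL-10 family, was at 0, 2.87 and 0.863 CPM against 72.8, 135, 40.2 and 40.5 CPM. For both genes every expanded library lay above every control library, and they rose by 5.45 ± 0.511 and 5.13 ± 0.615 on the log2 scale (± SE; edgeR adjusted p = 0.000299 and 0.00144). The 2 untested control libraries had no UMI of Il19, while the untested expanded library of day 1 round 1 had 75.5 CPM from 9 cells.

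The serum amyloid A genes encode small acute-phase apolipoproteins. Saa1 was at 0, 15.3 and 0.863 CPM in controls and 138, 185, 161 and 101 CPM in expanded libraries, with no overlap. Saa2 was at 0, 3.34 and 57 CPM against 728, 128, 430 and 428 CPM, again with no overlap. They rose by 4.26 ± 0.452 and 4.89 ± 0.708 on the log2 scale (edgeR adjusted p = 0.000552 and 0.00554), and only the thinned-cell rule, the strict rule (Saa1) and the fit of all 10 libraries (Saa2) ended a call, with edgeR adjusted p up to 0.0888 and 0.0665. Without the Vcan- and Hhip-rich members, Saa1 stood at 7.49 (edgeR adjusted p = 0.00187; 5.60e-33 to 0.0888 over its 21 alternatives). Saa2 UMIs lay in 22.7%, 9.26%, 10.6% and 13.7% of members of the expanded libraries and in 0%, 1.12% and 1.06% in controls, so most cells had none detected. In the untested libraries of day 1 round 1 Saa2 ran the other way, with 63.4 CPM (15 UMIs) in the control and 7.55 CPM (1 UMI) in the expanded library.

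Saa3, the form made outside the liver, was at 2.48, 583 and 31.1 CPM in controls and 61.3, 1235, 2181 and 1617 CPM in expanded skin. A single cell held 1208 of the 1221 UMIs of the control library of day 2 round 2, and without that cell the library stood at 6.27 CPM. Single cells also held 12 of 16, 177 of 522, 789 of 1573 and 700 of 1595 UMIs of the expanded libraries, which stood at 15.6, 838, 1103 and 924 CPM without them. The rise of 3.0 ± 0.661 on the log2 scale passed the test narrowly (edgeR adjusted p = 0.0411) and was called under 11 of 21 alternatives, with edgeR adjusted p up to 0.594, and without the Vcan- and Hhip-rich members it stood at 6.52. Lcn2, the iron-binding protein lipocalin 2, rose by 2.82 ± 0.594 (edgeR adjusted p = 0.0367), from 17.4, 64.0 and 3.45 CPM to 130, 225, 150 and 313 CPM. Hp, haptoglobin, rose by 4.79 ± 0.375 (edgeR adjusted p = 0.000101), from 2.48, 9.08 and 12.1 CPM to 23.0, 142, 293 and 449 CPM. Cells with Ptprc UMIs in the same libraries, which serve as a measure of free RNA and of leukocyte RNA, held mean levels of 11.7 and 188 CPM of Hp in control and expanded skin, 8.68 and 121 CPM of Lcn2, and 22.4 and 191 CPM of Saa3. Leaving out the control library of day 1 round 2 or either day 4 library ended the calls of Saa3 and Lcn2 (edgeR adjusted p from 0.0782 to 0.172), not that of Hp. The Hp level of members was close to that background, and the Saa3 level of expanded members lay above it in 3 of 4 libraries. For Saa2 and Il19 the Ptprc-positive cells of expanded skin had 0.593 and 1.32 CPM, far under the members.

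The proximal promoters of these genes are shown because all 5 genes were called higher in members. Each run is the 250 bases before the RefSeq start (build GRCm38.p6), 5′ to 3′ on the gene's strand. Capitals mark matches, on either strand, to the C/EBP core TTGCNNAA in Saa1, Saa2, Saa3 and Lcn2. In Il19 they mark the STAT pattern TTCNNNGAA, 216 bases before the start, and, 67 bases before the start, the NF-kappaB consensus.
Saa1, chr7:46742981-46743230, minus strand: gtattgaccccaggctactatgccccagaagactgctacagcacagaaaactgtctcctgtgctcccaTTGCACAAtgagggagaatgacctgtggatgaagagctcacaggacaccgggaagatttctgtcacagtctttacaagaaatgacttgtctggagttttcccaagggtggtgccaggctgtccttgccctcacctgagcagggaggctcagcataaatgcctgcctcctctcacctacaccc
Saa2, chr7:46751583-46751832, plus strand: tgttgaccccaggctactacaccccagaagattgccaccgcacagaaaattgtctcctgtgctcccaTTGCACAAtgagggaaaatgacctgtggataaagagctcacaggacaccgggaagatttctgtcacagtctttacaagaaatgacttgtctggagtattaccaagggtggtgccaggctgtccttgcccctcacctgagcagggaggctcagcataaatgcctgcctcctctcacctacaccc
Saa3, chr7:46715677-46715926, minus strand: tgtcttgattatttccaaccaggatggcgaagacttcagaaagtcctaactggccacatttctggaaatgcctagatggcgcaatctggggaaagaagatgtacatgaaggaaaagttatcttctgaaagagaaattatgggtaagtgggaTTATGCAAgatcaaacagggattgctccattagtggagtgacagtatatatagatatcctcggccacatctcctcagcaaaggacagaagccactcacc
Lcn2, chr2:32387740-32387989, minus strand: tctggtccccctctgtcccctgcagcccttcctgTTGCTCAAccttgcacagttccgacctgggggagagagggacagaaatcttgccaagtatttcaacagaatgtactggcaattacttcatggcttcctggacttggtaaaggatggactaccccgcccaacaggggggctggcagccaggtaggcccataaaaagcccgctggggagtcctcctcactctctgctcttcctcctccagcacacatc
Il19, chr1:130940116-130940365, minus strand: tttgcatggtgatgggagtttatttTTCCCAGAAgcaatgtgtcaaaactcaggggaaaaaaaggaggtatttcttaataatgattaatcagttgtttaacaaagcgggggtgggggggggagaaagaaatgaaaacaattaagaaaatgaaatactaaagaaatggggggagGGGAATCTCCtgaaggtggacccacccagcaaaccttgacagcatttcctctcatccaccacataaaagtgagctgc
The C/EBP core lay 174, 175, 91 and 208 bases before the starts of Saa1, Saa2, Saa3 and Lcn2. Of all 32851 promoters of this length in the table, 9.56% held it, while 7.02% held the STAT pattern and 7.25% the NF-kappaB consensus. The motifs were looked for after the values had been seen, in 14 named genes of which 12 had an entry, and a match is only a match of letters. Cemip, Corin, Ntrk2, Adm, Drd1, Avpr1a and Sp9, also searched, held no C/EBP, STAT or NF-kappaB match. An AP-1 pattern, searched too, matched none of the genes, and a TATA box pattern matched only Cemip and Avpr1a. Saa1 and Saa2 were identical at 238 of 251 aligned columns of this window (94.8%). They are near-identical copies, so reads may have been split between them, and their separate values are uncertain.

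Among the immediate early genes, which answer signals or tissue dissociation quickly, Fos and Fosb rose in expanded members. Fos was at 3367, 2970 and 2901 CPM in controls and 10698, 4662, 6328 and 7604 CPM in expanded skin, with no overlap. Fosb was at 2562, 2099 and 2192 CPM against 4949, 2720, 3987 and 5030 CPM. They rose by 1.28 ± 0.197 and 0.927 ± 0.190 on the log2 scale (edgeR adjusted p = 0.00705 and 0.0341). Of the 21 genes of the list, these 2 were called higher and 0 lower, against 1.03% and 0.716% of all genes, with a median of 0.58 beside 0.01 for all genes, and 20 had a positive sign. Socs3, the feedback inhibitor of cytokine receptors, rose by 1.03 ± 0.213 (edgeR adjusted p = 0.0352), from 405, 419 and 551 CPM to 743, 577, 880 and 1478 CPM. Without either day 4 library, none of these 3 genes was called (edgeR adjusted p between 0.105 and 0.413), nor without the control library of day 1 round 2 (0.0601, 0.141 and 0.114). Fos and Fosb were called without the Vcan- and Hhip-rich members and Socs3 was not (0.81, edgeR adjusted p = 0.0716; 0.00158 to 0.413 over 21 alternatives).

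Among receptors, Ntrk2, which encodes the BDNF receptor TrkB, was at 24.8, 17.2 and 9.50 CPM in controls and 107, 71.0, 119 and 106 CPM in expanded skin. Avpr1a, a vasopressin receptor, was at 19.9, 8.60 and 6.91 CPM against 42.1, 42.6, 58.2 and 86.2 CPM. Neither gene's arms overlapped, and they rose by 2.69 ± 0.302 and 2.61 ± 0.386 on the log2 scale (edgeR adjusted p = 0.000877 and 0.00554). The transcription factor gene Sp9 rose by 2.54 ± 0.355, from 5.30 ± 3.11 CPM (SD, n = 3) to 32.4 ± 7.09 CPM (SD, n = 4). Drd1, a dopamine receptor, rose by 2.90 ± 0.513, from 2.17 ± 2.42 to 21.7 ± 9.44 CPM, on 3 to 32 UMIs per expanded library. Adm, the vasoactive peptide adrenomedullin, rose by 3.38 ± 0.774 (edgeR adjusted p = 0.0464), with 199 CPM in the expanded library of day 2 round 1 and 13.9 to 53.7 CPM in the other 3. Its call held in 7 of 15 alternatives (edgeR adjusted p up to 0.330), and not without the Vcan- and Hhip-rich members (0.0574). Without the control library of day 4, Avpr1a, Sp9 and Drd1 had edgeR adjusted p of 0.127, 0.0756 and 0.335, while Ntrk2 kept its call (0.0191).

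Among signals that the papilla sends, Kitl and Rspo3 changed in opposite directions. Kitl, the ligand of the melanocyte receptor Kit, was at 22.4, 38.7 and 31.1 CPM in controls and 103, 68.6, 137 and 94.3 CPM in expanded skin. It rose by 1.64 ± 0.270 on the log2 scale (edgeR adjusted p = 0.0112), with no overlap among these. The untested control libraries of day 1 and day 2 round 1 had 106 and 65.5 CPM of Kitl. With all 10 libraries Kitl was not called (edgeR adjusted p = 0.318). Rspo3 was at 880, 191 and 299 CPM against 169, 109, 151 and 109 CPM. It fell by 1.34 ± 0.291 (edgeR adjusted p = 0.0400), with all tested expanded libraries below all tested controls. The untested control libraries of day 1 and day 2 round 1 had 118 and 140 CPM of Rspo3, within the range of the expanded ones. With all 10 libraries Rspo3 was not called (edgeR adjusted p = 0.248). Without the Vcan- and Hhip-rich members, the Rspo3 value was −0.48 (edgeR adjusted p = 0.426, within 1.25e-06 to 0.426 over its 21 alternatives), and without the control library of day 1 round 2 it was −0.94 (edgeR adjusted p = 0.167). Kitl kept its call without those members (1.33, edgeR adjusted p = 0.0484; 2.60e-06 to 0.318 over 21 alternatives). Without the control library of day 4, neither was called (edgeR adjusted p = 0.159 for Kitl and 0.341 for Rspo3), and Kitl was at 0.0586 without that of day 1 round 2. Of 28 secreted papilla signals tested, 1 was called higher (Kitl) and 1 lower (Rspo3), and the median was −0.34. Bmp4 (0.36), Inhba (−0.05), Wnt5a (−0.73), Fgf7 (−0.83) and Wif1 (−0.92) were not called.

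Cxcl14, a chemokine, was at 122, 22.0 and 54.4 CPM in controls and 226, 125, 331 and 297 CPM in expanded skin, and rose by 2.38 ± 0.430 (edgeR adjusted p = 0.0182). Igfbp3 rose by 1.36 ± 0.279 (edgeR adjusted p = 0.0344), from 1406, 3482 and 2752 CPM to 7013, 4580, 5435 and 8222 CPM, without overlap among these. The untested control libraries of day 1 and day 2 round 1 had 790 and 4832 CPM. With all 10 libraries Igfbp3 was not called (edgeR adjusted p = 0.0923). Without the Vcan- and Hhip-rich members, which the split itself makes poor in Igfbp3, it was 0.65 (edgeR adjusted p = 0.0890; 1.27e-07 to 0.33 over 21 alternatives). Pdgfra, the PDGF receptor of dermal mesenchyme, rose by 1.35 ± 0.244 (edgeR adjusted p = 0.0180), and Gas1, a co-receptor for Hedgehog ligand, by 1.14 ± 0.232 (edgeR adjusted p = 0.0341). Gas1 was at 0.73 (edgeR adjusted p = 0.253; 0.000654 to 0.407 over 21 alternatives) without the Vcan- and Hhip-rich members. Cxcl14, Igfbp3, Pdgfra and Gas1 were not called without the control library of day 4 (edgeR adjusted p = 0.224, 0.330, 0.230 and 0.407).

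**Figure D4:**
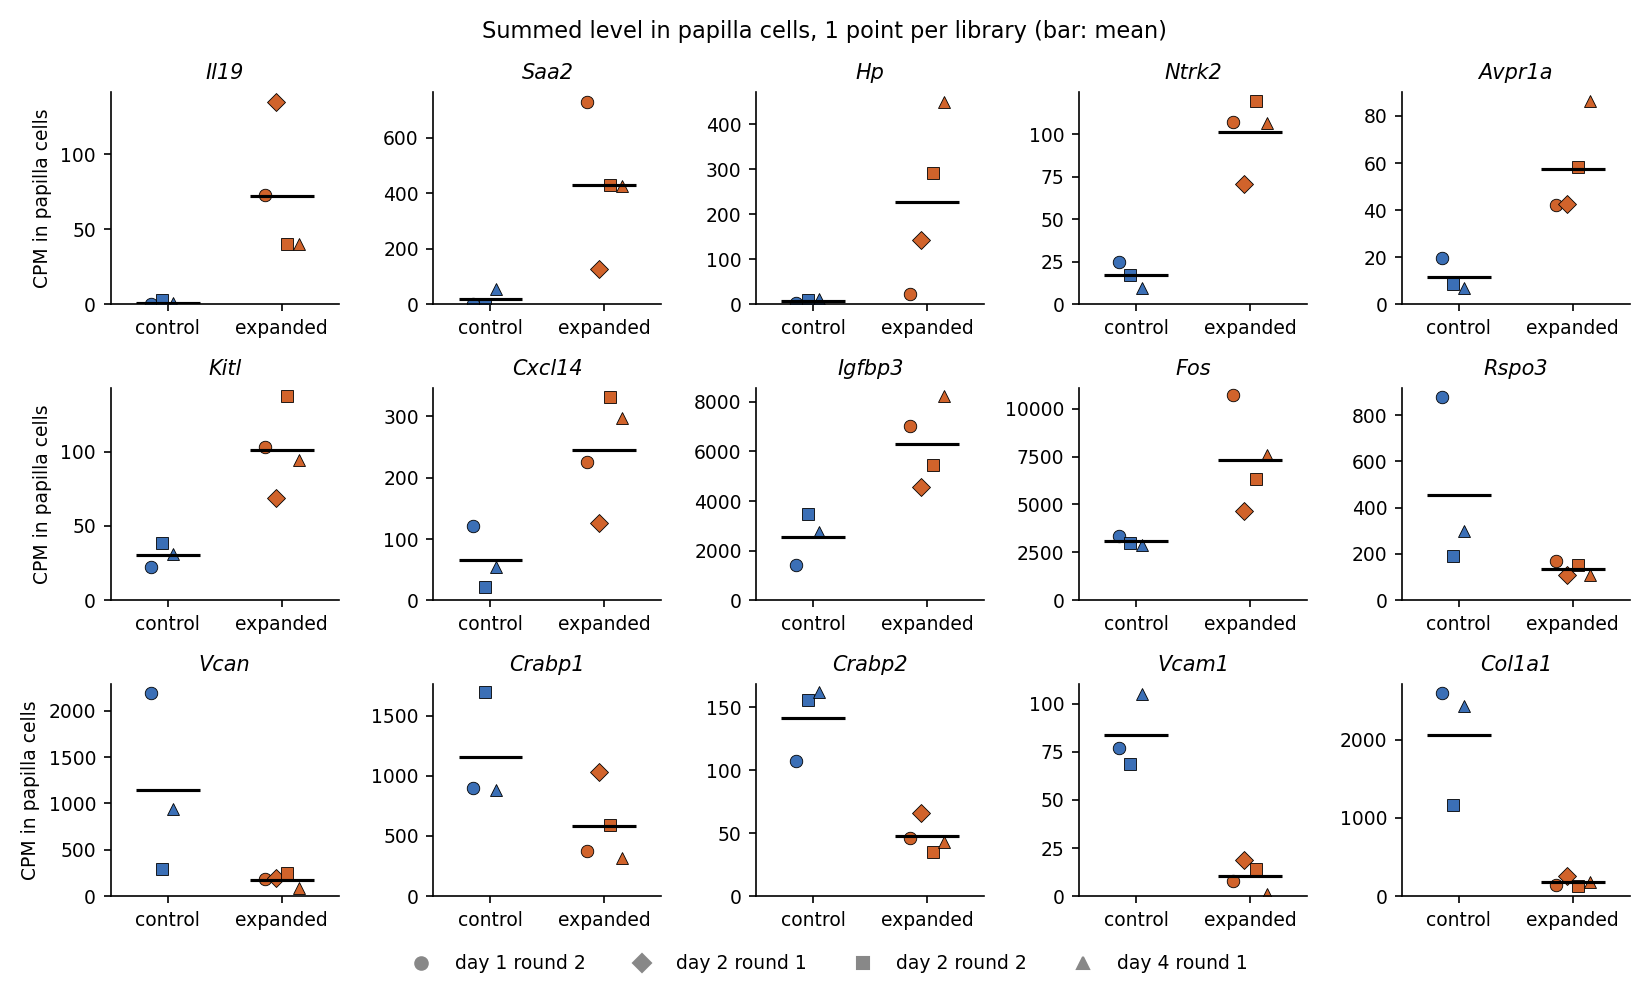
Level (CPM, linear axes from 0) of 15 genes in the summed members of each tested library; blue points are the 3 control and orange points the 4 expanded libraries, shapes give the day and round, and bars are means. The arms are separate in 14 of the panels and overlap for Crabp1.

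Of 16 genes of the papilla surface and matrix tested, Crabp1, Crabp2 and Vcan were called lower and Pdgfra higher, with a median of 0.07. Crabp1 and Crabp2 encode retinoic acid binding proteins. Crabp1 was at 897, 1697 and 878 CPM in controls and 375, 1029, 593 and 319 CPM in expanded skin, with overlap. Crabp2 was at 107, 156 and 162 CPM against 46.0, 66.2, 34.7 and 42.6 CPM, without overlap among these. The untested control libraries of day 1 and day 2 round 1 had 33.8 and 18.7 CPM of Crabp2, below all of them. With all 10 libraries Crabp2 was not called (edgeR adjusted p = 0.171). In the main fit Crabp1 and Crabp2 fell by 1.22 ± 0.226 and 1.66 ± 0.264 on the log2 scale (edgeR adjusted p = 0.0210 and 0.00937). Both were still called without the Vcan- and Hhip-rich members (edgeR adjusted p = 0.0444 and 0.0256), but not without the control library of day 4 (0.236 and 0.159). Vcan was at 2189, 295 and 941 CPM against 180, 192, 245 and 92.2 CPM, and fell by 2.35 ± 0.505 (edgeR adjusted p = 0.0387). Without the Vcan- and Hhip-rich members, a set chosen on Vcan itself, it was at −0.63 (edgeR adjusted p = 0.299; 3.24e-17 to 0.407 over 21 alternatives). Vcam1, an adhesion molecule, fell by 3.23 ± 0.492 (edgeR adjusted p = 0.00686), from 77.0, 68.8 and 105 CPM to 7.66, 18.9, 13.9 and 1.01 CPM. Ptprc-positive cells held 29.2 and 9.74 CPM of Vcam1 in control and expanded skin, beside means of 83.7 and 10.4 CPM in members. The part of free or leukocyte RNA in these levels was not tested. F5, coagulation factor V, and Kif26b, a kinesin family gene, had log2 values of −2.53 ± 0.373 and −2.73 ± 0.57 and both fell (edgeR adjusted p = 0.00554 and 0.0362), and neither had enough counts to be tested without the Vcan- and Hhip-rich members. The arms overlapped for F5, which was at 330, 10.0 and 74.2 CPM in controls and 34.5, 2.37, 6.93 and 11.1 CPM in expanded skin. Neither was called without the control library of day 1 round 2 (edgeR adjusted p = 0.0818 for F5 and 0.122 for Kif26b) or of day 4 (0.138 and 0.415), and Kif26b was called in 7 of 14 alternatives.

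Collagen and other fibroblast genes gave most of the largest falls, and for several of them the level in control members lay close to that in Ptprc-positive cells. Col1a1, a chain of type I collagen, was at 2591, 1158 and 2427 CPM in controls and 138, 258, 126 and 179 CPM in expanded members, and fell by 3.41 ± 0.328 on the log2 scale (edgeR adjusted p = 0.000299). Ptprc-positive cells of the same libraries had a mean of 2462 CPM in control and 285 CPM in expanded skin. Fibroblasts and doublets with a Ptprc UMI were not excluded from them. Col1a2 fell by 2.82 in members, from 2238 ± 931 CPM (SD, n = 3) to 289.7 ± 94.5 (SD, n = 4), beside 2384 and 265 CPM in Ptprc-positive cells. Sparc (1956 to 387 CPM, beside 1855 and 333), Lum (278 to 40.5, beside 262 and 45.7) and Clec3b (64.2 to 7.56, beside 56.8 and 4.27) also lay near that level in control members. Pcolce2 (63.2 to 1.35, beside 54.0 and 5.01), Cd34 (52.4 to 2.20, beside 50.9 and 11.2) and Prelp (37.0 to 3.99, beside 28.9 and 12.0) lay near it in control members and below it in expanded ones. Col15a1, a basement membrane collagen chain, lay above it in both arms (239 to 27.9 CPM, beside 29.7 and 5.22). It fell by 2.79 ± 0.452 (edgeR adjusted p = 0.0100), was at −1.91 without the Vcan- and Hhip-rich members (edgeR adjusted p = 0.0119; 1.92e-19 to 0.122 over 21 alternatives), and was not called without the control library of day 1 round 2 (0.0739) or of day 4 (0.122). The part of free RNA in these levels was not tested. Of 53 genes called lower outside the choosing genes, 18 had a control level within 1.5 times that of Ptprc-positive cells or under it, and of 78 called higher, 17 had such an expanded level. Over all 7545 genes tested the shares were 53.6% and 56.2%. The summed level of 7 fibroblast markers was 2917, 1960 and 3568 CPM in members of the control libraries and 762, 776, 591 and 596 CPM in those of the expanded libraries. Fewer cells with such RNA and less RNA per cell cannot be told apart in these sums. Collagen-rich members, with at least 2% of UMIs from 3 collagen genes, numbered 21. The tested control libraries held 2, 7 and 5 of them, and each tested expanded library 0. Without them, Col1a1 was at −1.42 (edgeR adjusted p = 0.0361) and Col1a2 at −1.10 (edgeR adjusted p = 0.0863). Sparc, Lum, Clec3b and Col3a1 were not called without them either (edgeR adjusted p = 0.0638, 0.195, 0.179 and 0.312). Pcolce2, Cd34 and Prelp did not have enough counts to be tested without them. Over 21 alternatives each, adjusted p ran from 1.10e-44 to 0.0675 for Col1a1 and from 8.72e-32 to 0.0863 for Col1a2 (edgeR or DESeq2). Of 32 matrix genes tested, 5 were called lower (Col1a1, Col1a2, Col3a1, Lum and Sparc) and 1 higher, with a median of −0.46.

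The other pathway lists held few calls. Of 18 papilla transcription factors, 17 Wnt response, 11 BMP response and 5 Notch response genes tested, 0 were called, with medians of 0.14, 0.19, 0.33 and 0.12 and 3, 6, 3 and 1 genes at an unadjusted edgeR p under 0.05. Examples are Lef1 (0.15), Axin2 (0.44) and Id1 (0.76). Of 9 Hedgehog genes, Gas1 was the 1 called, while Ptch1, Gli1 and Hhip were at −0.98, −1.09 and −1.43 (edgeR adjusted p = 0.143, 0.116 and 0.126). Of 20 NF-kappaB and acute-phase genes, 5 were called higher (Lcn2, Saa1, Saa2, Saa3 and Socs3) and Vcam1 lower, with a median of 0.54. The feedback genes Nfkbia (−0.20) and Tnfaip3 (−0.52) of that list were not called. Of 11 chemokines and cytokines, Cxcl14 was called higher and Ccl8 lower. Ccl8 was at 2109 and 880 CPM in Ptprc-positive cells of control and expanded skin, against 70.4 and 26.6 CPM in members. Of 14 interferon response genes, Ifi27l2a and H2-D1 were called higher, and 13 had a positive sign. Ptprc-positive cells held more of both, with 235 and 577 CPM of Ifi27l2a in control and expanded skin against 5.39 and 40.2 CPM in members, and 2618 and 1928 CPM of H2-D1. Of 12 genes of the IGF axis, Igfbp3 was called higher and Igfbp6 lower. Igfbp6 was at 62.4 and 17.0 CPM in control and expanded members, beside 53.3 and 56.2 CPM in Ptprc-positive cells. Without the collagen-rich members Igfbp6 was not called (edgeR adjusted p = 0.285). Of 15 glycolysis and hypoxia genes, Adm and Pkm were called higher. Pkm was at 306 and 572 CPM in control and expanded members, beside 403 and 867 CPM in Ptprc-positive cells. Of 15 genes linked to stretch, the cytoskeleton and YAP, 0 were called, 5 had an unadjusted edgeR p under 0.05, 1 had a positive sign, and the median was −0.46. Heat shock (12 tested), cell cycle (6), metallothionein and glucocorticoid (8) and EGF ligand (1) genes had 0 calls, with 3, 3, 4 and 1 genes at an unadjusted edgeR p under 0.05. Of these lists, Ccl8, Ifi27l2a, H2-D1 and Pkm were not called without the Vcan- and Hhip-rich members (edgeR adjusted p = 0.229, 0.114, 0.139 and 0.0509, with 0.237, 0.522, 0.381 and 0.381 the highest over their alternatives).

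The response of members was compared with that of comparison fibroblasts from the same libraries, by the interaction of arm and cell class with library as a block. Of 11339 genes tested, 520 differed in response (4.59%; edgeR's quasi-likelihood test, adjusted p under 0.05), 212 higher (1.87%) and 308 lower (2.72%) in members. The count was 327 without the control library of day 1 round 2, 217 without that of day 4, 324 without the expanded library of day 2 round 2 and 232 without that of day 4. Rspo3, which fell by 1.34 in members, rose by 1.52 ± 0.228 in fibroblasts, a difference of −3.11 ± 0.443 (edgeR adjusted p = 0.00118). Its fibroblast means were low, at 4.74 CPM in control and 15.9 CPM in expanded libraries. Its fall in members was not called without the Vcan- and Hhip-rich members (−0.48, edgeR adjusted p = 0.426). Crabp1 fell by 1.22 in members and rose by 2.07 in fibroblasts (difference −3.29 ± 0.365, edgeR adjusted p = 0.000272). Cldn10, a claudin, went the other way, from 32.3, 59.7 and 50.1 CPM in control members to 126, 123, 143 and 94.3 CPM in expanded ones, while it fell by 2.84 in fibroblasts (difference 4.20 ± 0.382, edgeR adjusted p = 4.37e-05). Its rise in members (1.25, edgeR adjusted p = 0.0221) was not called without the Vcan- and Hhip-rich members (0.0807, and up to 0.159 over 21 alternatives). Cells with at least 4 UMIs of Coch and Crabp1, both detected, no choosing gene and the same other limits may belong to the comparison class. They had a mean of 2902 CPM of Crabp1, against 1024 in the class. In tested controls they numbered 692, 256 and 379, beside 2955, 1285 and 2503 comparison fibroblasts. In tested expanded libraries they numbered 434, 259, 109 and 187, beside 728, 428, 178 and 339. Their part in the fibroblast values and the 520 calls was not tested.

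Il19 rose more in members than in fibroblasts, by 5.13 against 2.72 (difference 2.58 ± 0.562, edgeR adjusted p = 0.0152). Avpr1a, Adm and Sp9 rose in members, and their fibroblast values were −0.16, −0.57 and 0.41, with differences of 2.77, 3.96 and 2.45 (edgeR adjusted p = 0.00173, 0.00146 and 0.0152). Ntrk2 differed by 1.87 and Fos by 1.24, the fibroblast value of Fos being −0.07 ± 0.245 (edgeR adjusted p of the differences 0.00834 and 0.00277). For Cemip, Saa1, Saa2, Saa3, Hp and Lcn2 no difference passed the test. Cemip was at 5.45 in members and 5.42 in fibroblasts (difference −0.26 ± 0.912), and Lcn2 at 2.82 and 4.29 (difference −1.11 ± 0.616). Kif26b fell by 2.73 in members and rose by 1.06 in fibroblasts (difference −4.16 ± 0.514, edgeR adjusted p = 0.000601). The 12 genes with the largest differences rested on few counts, 10 of them on under 100 member UMIs in the tested libraries, the exceptions being Cldn10 with 477 and the globin gene Hbb-bt with 168.

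**Figure D5:**
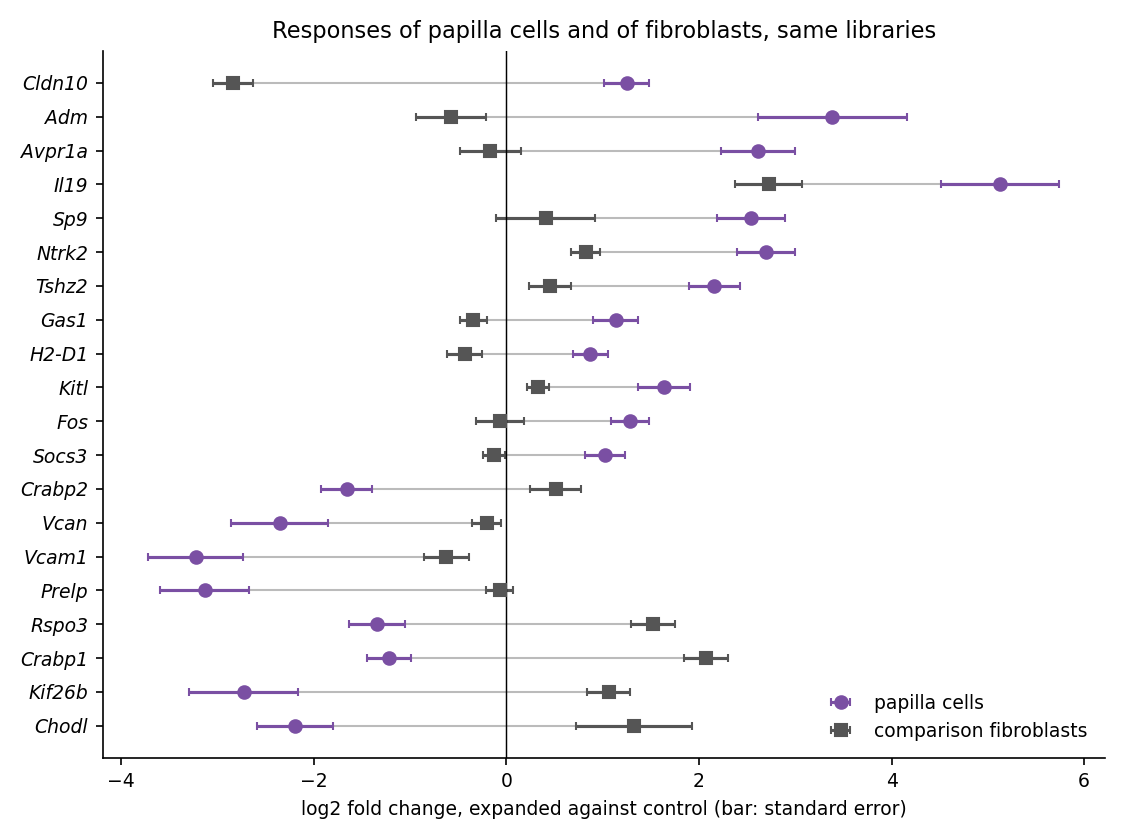
Log2 fold change of expanded against control libraries (± SE) in papilla cells (purple) and in comparison fibroblasts of the same libraries (grey) for 20 genes called in members whose responses differed. Rspo3, Crabp1, Kif26b and Chodl lie below 0 in papilla cells and above it in fibroblasts, Cldn10 the reverse, and Avpr1a, Fos and Socs3 rose in papilla cells with fibroblast values near 0.

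Whether the response differed between day 2 and day 1 was tested with 1 control library per day, 1 expanded library on day 1 and 2 on day 2. No gene of 6872 passed (0 calls by edgeR's quasi-likelihood test with 300 at an unadjusted p under 0.05, and 0 by DESeq2 with 52). After thinning members to 3000 UMIs, 16 genes passed, 11 higher and 5 lower.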

How the data were processed

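Sparse matrices of whole UMI counts per gene and cell barcode were deposited by the authors for each mRNA library, made with Cell Ranger 6.1.2 on build mm10 per the submitters' processing notes. Tables of hashtag counts were deposited for the hashed libraries. The annotation release was not given in the sources used here, and 32285 genes were listed.

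Of 55174 barcodes, 47251 passed the limits of 200 genes, 500 UMIs and 10% of UMIs from mitochondrial genes. Hashtags were called with HTODemux in Seurat 5.3.0 (quantile 0.99) and doublets with Scrublet in scanpy 1.11.5. The 8 members called doublets stayed in the main analysis. The members and gene lists were chosen with earlier results of these data known.

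Member counts were summed per library and tested with edgeR 4.0.16 (R 4.3.3; filterByExpr, TMM, glmQLFTest, day as covariate, Benjamini-Hochberg over all genes tested), and DESeq2 1.42.0 was an alternative. Ranges over alternatives include the DESeq2 value. The code was tested on simulated counts with 200 changed genes. Named genes were the 12 largest rises and 12 largest falls among called genes with a mean of at least 20 CPM in the higher arm and 1 direction in every pair of a day and round, the called members of the lists, the 15 leading genes against fibroblasts, and the 6 largest differences of response in each direction. Other genes are said to be chosen after their values were seen. The values of 1 called gene are not reported here.

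The labels give a control and an expanded library of the same day and round, which pairs them. Deviations from the arm means correlated at 0.14, 0.115 and 0.0885 across genes within the 3 pairs and at −0.144 to 0.128 between libraries that are no pair. Mice were pooled, so p-values measure the spread between libraries. Tested libraries held 261073 to 2093010 member UMIs. The Sox2 and cycling shares were compared after thinning to 3000 UMIs. The share of kept cells that were members was compared without thinning. With the rule applied to thinned cells, its difference was 0.710 percentage points (exact permutation test, p = 0.722). Exact 95% Clopper-Pearson intervals cover counting error only.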

Additional observations from a re-analysis of the deposited data

Results flagged for a closer look

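In 3 of 47 groups of 4 expanded libraries, 1 library lay far from the other 3 (Dixon's ratio above its 95% critical value, which chance passes in about 1 of 20 groups). For Col1a2 (430.5 CPM), Col3a1 (1093 CPM) and Pdgfra (212.9 CPM) this was the expanded library of day 2 round 1, high for both collagens and low for Pdgfra.

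The response to expansion differed between members and comparison fibroblasts (members minus fibroblasts, log2, edgeR interaction test, adjusted p under 0.05) for 34 named genes. Those with the largest differences, listed in the next paragraph, were named by this same test, so their passing was fixed in advance. The others were named for a call in members. The count of 34 is therefore a description and tests nothing. Of all 11339 genes tested, 520 differed (4.59%). Among signals, receptors and adhesion or matrix genes of the papilla, the difference was −3.108 for Rspo3, 1.278 for Kitl, 2.584 for Il19, 3.957 for Adm, 1.865 for Ntrk2, 2.766 for Avpr1a, 1.414 for Gas1, −2.209 for Vcan and −2.761 for Vcam1. It was −3.289 for Crabp1, −2.125 for Crabp2, −4.156 for Kif26b and 2.454 for Sp9. Among immediate early, feedback and interferon genes it was 1.24 for Fos, 0.9814 for Fosb, 1.111 for Socs3, 2.905 for Ifi27l2a and 1.29 for H2-D1. Among fibroblast genes, whose levels in control members lay near those of Ptprc-positive cells, it was −2.707 for Pcolce2, −2.384 for Cd34, −1.488 for Col1a1 and −2.976 for Prelp.

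The genes with the largest differences were Myorg (8.492), Rassf4 (5.809), Agt (4.889), F830016B08Rik (4.752), Cldn10 (4.205) and Gpr146 (4.176), and in the other direction Clstn2 (−9.76), Hbb-bt (−9.218), Kera (−8.597), C1qtnf3 (−8.212), Cdk1 (−8.166) and Pla2g2e (−7.637). All but Cldn10 and Hbb-bt had under 100 member UMIs in the tested libraries. Hbb-bt encodes a globin, and its member UMIs lay mainly in the control library of day 2 round 2, at 78.8 CPM.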

How the results depend on the processing

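The count of genes changed in members (132) was 512 with no low-count filter, 60 under a stricter member rule (8 UMIs, 3 genes), 40 when the rule was applied to thinned cells and 18 on days 1 and 2 alone. It was 29 with all 10 libraries, an alternative chosen after seeing the data, and 17 to 283 when 1 library was left out. With the pairs of day and round as a replicate block it was 301, and all 132 genes of the unblocked fit were among them. The arm effect of the blocked fit rested on the 3 complete pairs. The block with thinning gave 129. DESeq2 called 127 genes, 98 of them shared. RLE factors (132), thinning (101), removal of doublets (123), of the Vcan- and Hhip-rich members (103, with 67 shared), of collagen-rich members (125) and of the member over 50000 UMIs (122) stayed within 1.5 times, the last 3 of these chosen after seeing the data. Of the 43 named genes, 43 were called under the block, 36 under DESeq2, 20 without the control library of day 1 round 2, 14 without that of day 4, 14 without the expanded library of day 4, and 9 with all 10 libraries. No sign among them turned.

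The count of genes whose response differed from fibroblasts (520) was 280 after thinning, 285 under the stricter rule, 511 with a stricter fibroblast rule, 409 without the Vcan- and Hhip-rich members, and 217 to 474 with 1 library left out. Agt ran from −3.02, a turned sign, without the expanded library of day 4 to 10.5 when the day 2 round 2 control was dropped. The difference between days gave 16 genes after thinning. Its replicate block, and its fits without any 1 library of days 1 and 2, could not be fitted. The share of members differed by −0.108 to 1.77 percentage points with 1 library left out, and p stayed above 0.05 in every alternative for it, of which the replicate block could not go below 0.0625. The Sox2 and cycling shares had too few libraries to reach 0.05. Depth limits low genes most: libraries of 44 and 54 members carried 261073 and 422737 UMIs.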

Other observations

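Several changed genes outside the lists and the naming rule were chosen for mention after their values were seen. The agouti gene, a, which encodes the papilla signal for yellow pigment, was at 400.0, 238 and 202 CPM in the control libraries of day 1 round 2, day 2 round 2 and day 4. In the expanded libraries it was at 601, 764, 879 and 1107 CPM, above every control. It rose by 1.67 ± 0.289 on the log2 scale (edgeR adjusted p = 0.0153, called in 16 of 21 alternatives), and fibroblasts had 1.89. Without the control library of day 4 its adjusted p was 0.224. Tshz2, a zinc finger gene, rose by 2.16 ± 0.267 (edgeR adjusted p = 0.00162), from 62.1, 45.4 and 50.1 CPM to 172, 151, 216 and 347 CPM, and was called in 21 of 21 alternatives. Wnt16, a Wnt ligand, rose by 2.31 ± 0.512 (edgeR adjusted p = 0.0430), although the expanded library of day 1 round 2 had 7.66 CPM, under all 3 controls, and the other 3 had 37.8, 116 and 60.8 CPM; it was not called without the control library of day 4 (0.409).

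Genes of actin handling and the muscle-type cytoskeleton were among the falls. Cfl2, a cofilin, fell by 1.30 ± 0.217 (edgeR adjusted p = 0.0115), from 77.0, 111 and 110 CPM to 30.6, 52.0, 44.4 and 40.5 CPM. Pfn2, a profilin, fell by 1.95 ± 0.414 (edgeR adjusted p = 0.0379), from 82.0, 37.7 and 95.8 CPM to 7.66, 9.46, 27.7 and 14.2 CPM. Csrp1 fell by 0.957 ± 0.207 and Cnn2, a calponin, by 1.27 ± 0.288 (edgeR adjusted p = 0.0400 and 0.0447). None of these overlapped between arms in the tested libraries. The untested control libraries of day 1 and day 2 round 1 had 38.0 and 93.6 CPM of Cfl2 and 42.2 and 9.36 of Pfn2. They had 46.5 and 150 CPM of Csrp1 and 42.2 and 28.1 of Cnn2. The lower value of each gene lay within or below the range of the tested expanded libraries. With all 10 libraries Cfl2 was called (edgeR adjusted p = 0.0446), and Pfn2, Csrp1 and Cnn2 were not (0.0763, 0.0936 and 0.0979). Without the control library of day 4, none of these 4 genes was called (edgeR adjusted p = 0.197, 0.438, 0.381 and 0.140). Without the Vcan- and Hhip-rich members, Cfl2 was still called (edgeR adjusted p = 0.0122), while Pfn2 was at −1.41, Csrp1 at −1.07 and Cnn2 at −0.76 (edgeR adjusted p = 0.0733, 0.0577 and 0.328). Over their 21 alternatives adjusted p reached 0.197, 0.438, 0.381 and 0.328. The fibroblast values of these 4 genes were −0.01, 0.38, −0.08 and 0.81, and the differences of response were −1.29, −2.37, −0.99 and −2.48 (edgeR adjusted p = 0.0111, 0.00415, 0.0423 and 0.00173). They were picked among the falls, so they say nothing of the group as a whole.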
